A study of Mus musculus with 12 samples.

Results

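Excitatory nuclei in which much AAV reporter transcript was counted were compared with excitatory nuclei of the same animal in which none was counted. The reporter, TDTOMATO, was counted as a gene of its own in each nucleus. Excitatory nuclei were barcodes with 3000 to 12000 UMIs (unique molecular identifiers, the transcript molecules counted), at most 1% mitochondrial UMIs, at least 1 UMI of Slc17a7, the vesicular glutamate transporter, and no UMI of Gad1 or Gad2, the enzymes that make GABA. Of 78743 barcodes, 20694 met this rule. Among them, 3933 had 4 or more TDTOMATO UMIs and are called tdTomato-high, 7953 had none and are called tdTomato-negative, and 8808 with 1 to 3 were left out of the main comparison. TDTOMATO, Slc17a7, Gad1, Gad2 and the mitochondrial genes chose the nuclei, so their values are described and not tested between high and negative nuclei.

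The nuclei came from the cortex of 12 mice of the MYT1L S710fsX strain at postnatal day 21, 6 wild type (WT) and 6 heterozygous (Het), each genotype split evenly into 3 males and 3 females. MYT1L is a transcription factor of neurons, and the strain carries a frameshift allele. All animals, both genotypes alike, had been injected through the skull into the ventricles as newborn pups with a mixture of 2 AAV9 vectors. These were reagents of Calling Cards, a method that records protein-DNA interactions. One vector was for the hyPB transposase and one for H2b-tdT-SRT, a histone H2B fusion of tdTomato. There was no uninjected control, and the reporter marks delivery and expression of one of the vectors only. The tissue was banked from several litters, and all animals were prepared on the same plates with a combinatorial barcoding kit from Scale Biosciences. Summed over nuclei, the animals held 23429386 to 59958572 UMIs, and no barcode was shared between libraries. Myt1l, counted over the whole gene, did not separate the genotypes. In tdTomato-negative nuclei it measured 961 ± 89.0 CPM (counts scaled to the library total, SD, n = 6) without the allele and 1046 ± 67.0 CPM (SD, n = 6) with it, a difference that an exact two-sided permutation test put at p = 0.0887. These counts do not read the frameshift itself and do not check the labels.

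AAV vectors enter cells by binding glycans and receptors on the surface, travel through endosomes to the nucleus, and persist there mostly as circular episomes from which the carried gene is transcribed. Here a transposase was delivered beside the reporter. Whether TDTOMATO was transcribed from episomes or from copies inserted into the genome was not tested. AAV9 given to newborn animals reaches neurons and some glia. Cortical excitatory neurons are divided by layer and by projection into intratelencephalic (IT), extratelencephalic (ET), near-projecting (NP), corticothalamic (CT) and layer 6b neurons, each with marker genes that single-nucleus data can read.

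TDTOMATO was found in most excitatory nuclei. Per animal, 46.9% to 76.4% of them had at least 1 TDTOMATO UMI (median 61.3%), and 9.65% to 30.0% were tdTomato-high (median 18.0%). The animals held 97 to 589 tdTomato-high and 259 to 1291 tdTomato-negative nuclei. The WT male 1 animal was lowest on the share of high nuclei and the WT female 1 animal highest. The reporter made up 1.76 to 3.74 of every 10000 UMIs. A tdTomato-high nucleus had 5 TDTOMATO UMIs at the median and 32 at most, and 729 nuclei had 8 or more. Just inside the limit, 1302 nuclei had exactly 4 TDTOMATO UMIs at a median of 7235 UMIs in all. Just outside it, 1962 nuclei had exactly 3 at a median of 6953.

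The reporter was not confined to excitatory nuclei. GABAergic nuclei were taken as those with no Slc17a7 and at least 2 UMIs of Gad1 and Gad2 together. Of 7567 of them, 48.2% had a TDTOMATO UMI and 14.5% had 4 or more, at a median of 5543 UMIs against 6585 in excitatory nuclei. Nuclei without Slc17a7, Gad1 or Gad2 were assigned to glial classes where a class's markers summed to at least 8 UMIs and were at least 4 times those of any other class. Among those with at least 3000 UMIs, a TDTOMATO UMI was found in 16.6% of 728 oligodendrocyte-like nuclei (95% Wilson interval 14.1% to 19.5%, median 3784 UMIs) and in 35.7% of 277 astrocyte-like nuclei (30.3% to 41.5%, median 5946 UMIs). It was found in 55.2% of 96 microglia-like nuclei (45.3% to 64.8%, median 5950 UMIs). Of 42 oligodendrocyte precursor (OPC)-like nuclei 3 had one, 7.14% (2.46% to 19.0%, median 3470 UMIs). It was seen in 0 of 9 endothelial or mural-like nuclei, which allows a share of up to 33.3% (3 counts over the nuclei seen, not a Wilson limit). Relative to all their UMIs, oligodendrocyte-like nuclei held 0.874, OPC-like nuclei 0.53, astrocyte-like nuclei 1.73 and microglia-like nuclei 2.34 TDTOMATO UMIs per 10000, against 2.75 in excitatory and 2.53 in GABAergic nuclei. Because no class can be taken to lack the vector, the part of free RNA in these shares was not tested. At 4 or more UMIs the share was 3.57% in oligodendrocyte-like (2.45% to 5.18%), 2.38% in OPC-like (0.422% to 12.3%), 10.1% in astrocyte-like (7.09% to 14.2%) and 14.6% in microglia-like nuclei (8.89% to 23%), against 19.0% in excitatory and 14.5% in GABAergic nuclei. The microglial interval holds both neuronal shares. Doublets were not taken out of these classes, and the part of joined neuronal and glial nuclei in the glial shares was not tested. Intervals and limits cover counting error over pooled nuclei only, not the spread between animals.

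Whether the share of tdTomato-high nuclei differed by genotype was asked next. WT animals had 19.2% ± 8.51 (SD, n = 6), Het animals had 19.0% ± 4.56 (SD, n = 6), and all 6 Het values lay within the WT range. The difference of -0.241 percentage points was smaller than the spread between animals (exact permutation test, two-sided p = 0.965). By sex, which was looked at after the values were seen, females had 23% ± 6.13 (SD, n = 6) and males 15.2% ± 4.43 (SD, n = 6). This difference of 7.76 percentage points had an exact permutation p of 0.0303, and 0.182 after Benjamini-Hochberg adjustment over the 12 comparisons of this kind. After thinning every nucleus to 3000 UMIs the shares were 5.65% ± 1.66 (SD, n = 6) in females and 3.45% ± 1.08 (SD, n = 6) in males, with the same exact permutation p of 0.0303. Litter was not given per animal, so sex, litter and injection cannot be told apart.

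**Figure D1:**
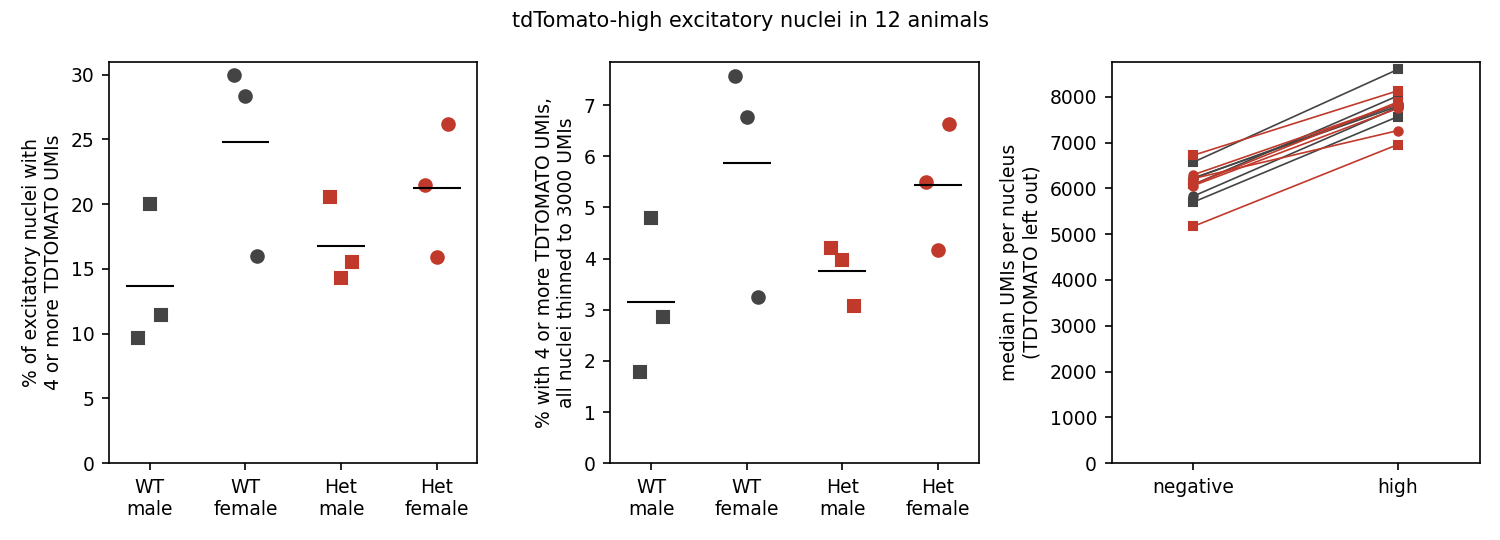
Left and middle, percent of excitatory nuclei per animal with 4 or more TDTOMATO UMIs, at full depth and after thinning each nucleus to 3000 UMIs (squares males, circles females, grey WT, red Het, bars means of 3 animals). Right, median UMIs per nucleus without TDTOMATO, with each line joining the negative and high nuclei of 1 animal. The high nuclei were deeper in all 12 animals.

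TdTomato-high nuclei were deeper sequenced than tdTomato-negative ones. Their median UMI count, TDTOMATO left out, was 6958 to 8599 per animal (median 7814), against 5171.5 to 6724 (median 6150). The ratio was 1.17 to 1.35, and the high nuclei were deeper in 12 of 12 animals. Because a deeper nucleus has more chances to reach 4 UMIs, this difference is partly set by the rule and was not tested. Likewise a shallower nucleus more often shows no TDTOMATO UMI. The negative side can therefore include nuclei whose reporter transcript was not detected. At 3000 UMIs per nucleus, tdTomato-high nuclei had slightly fewer genes detected, with medians of 1401 to 1469.5 against 1421 to 1498. The share of nuclei among the 5% of highest doublet scores was 4.52% ± 1.68 (SD, n = 12) in high and 2.84% ± 0.813 (SD, n = 12) in negative nuclei. Slc17a7 itself measured 179 to 215 CPM in high and 205 to 257 in negative nuclei. Mitochondrial UMIs made up 0.0113% ± 0.0041 (SD, n = 12) of all UMIs in high and 0.0140% ± 0.0039 (SD, n = 12) in negative nuclei.

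The share of tdTomato-high nuclei differed widely between excitatory clusters. Clustering, which did not use TDTOMATO, gave 25 clusters, of which 24 could be tested against all other excitatory nuclei of the same animals. The share was called different in 18 of them, above in 5 and below in 13 (exact sign-flip test over animals, two-sided, Benjamini-Hochberg adjusted p under 0.05). After thinning every nucleus to 3000 UMIs it was called different in 13, above in 3 and below in 10. Clusters were named "X-like" from their closest marker list, by a rule set after the clusters were seen. At least 3 of its markers had to be raised, and the list's mean log2 fold over the median of clusters had to be at least 1. At least 1 marker had to be among the 10 leading genes, and no other list could have more there. Clusters led by glial markers were left unnamed.

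At full depth, L5 IT-like and L4/5 IT-like nuclei were the named groups with the highest shares. In L5 IT-like nuclei (cluster 6, with Ptprm and Deptor among its leading genes) 15.7% to 58.7% of nuclei were high (median 42.1%, n = 12). The share was 22.2 percentage points above the other nuclei of the same animals, and above them in 12 of 12 animals (exact sign-flip test, adjusted p = 0.00167). In L4/5 IT-like nuclei (cluster 3, with Rorb) it was 14.4% to 53.5% (median 30.7%), 15.4 points above the rest in 12 of 12 animals (exact, adjusted p = 0.00167). The raw p of both, 0.000488, is the smallest that 12 animals can give. After thinning, the L5 IT-like share was 8.97% ± 4.13 (SD, n = 12) against 4.31% in the rest (exact, adjusted p = 0.00781). The L4/5 IT-like share was then 5.97% ± 3.62 (SD, n = 12) against 4.45%, which did not pass (exact, adjusted p = 0.0955). These clusters had median UMI counts of 7528 and 7734, against 6585 over all excitatory nuclei.

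Among named clusters at full depth, the lowest shares were in corticothalamic, claustrum and hippocampal nuclei. L6 CT-like nuclei (cluster 0, with Foxp2, Syt6 and Tle4 leading) were the largest cluster, with 2648 nuclei at a median of 5587 UMIs. Of them 2.25% to 19.1% were high (median 7.88%), 11.0 points below the rest, in 12 of 12 animals (exact sign-flip test, adjusted p = 0.00167). They stayed below it after thinning, with 2.96% ± 2.29 (SD, n = 12) against 4.78% (exact, adjusted p = 0.00586). Car3/claustrum-like nuclei (cluster 19) had 9.62% ± 8.09 (SD, n = 12) and dentate gyrus (DG)-like nuclei (cluster 23, led by Prox1, the granule cell transcription factor) 8.38% ± 7.99 (SD, n = 10). After thinning they had 1.51% (exact, adjusted p = 0.00586) and 2.58%, which did not pass (exact, adjusted p = 0.0885), and the lowest named share was then the 1.42% of L2/3 IT-like cluster 7. The unnamed cluster 21, with 4 of 6 L6 CT markers raised but none leading, had 9.56% ± 9.60 (SD, n = 11). L2/3 IT-like nuclei had a share of 17.8% ± 7.97 (SD, n = 12) in cluster 1, not called different from the rest at full depth (exact, adjusted p = 0.186) but lower after thinning (3.65% against 4.68%, exact, adjusted p = 0.0362), and of 14.2% ± 7.43 (SD, n = 12) in cluster 7, which was lower (exact, adjusted p = 0.00213). The unnamed cluster 18 had 5 of 6 L2/3 IT markers raised, but more DG than L2/3 IT markers leading. Its share was 13.1% ± 7.94 (SD, n = 12), lower than the rest (exact, adjusted p = 0.00213), and did not pass after thinning (exact, adjusted p = 0.0516). L6 IT-like nuclei (cluster 2) had 21.4% ± 7.94 (SD, n = 12) and L6b-like nuclei (cluster 8) 23.2% ± 13.01 (SD, n = 12), and neither was called. After thinning the L6b-like share, 6.30%, lay above the L4/5 IT-like one and also did not pass (exact, adjusted p = 0.0745). Rorb did not mark a high share by itself, since cluster 4, led by Gm20752 and Rorb but left unnamed, had 11.4% ± 5.22 (SD, n = 12) and was below the rest in 12 of 12 animals (exact, adjusted p = 0.00167).

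Further high shares were in 3 clusters that no marker list named. Cluster 12, with 594 nuclei, had 49.3% ± 9.61 (SD, n = 12), the highest share at full depth. After thinning it had 13.2% ± 7.37 (SD, n = 12) against 4.28% in the rest (exact, adjusted p = 0.00781). In it 5 of 7 L5 ET markers were raised, but none was among its 10 leading genes, which included Reln and Ntng1. Cluster 16, with 420 nuclei and led by Ier5, Irf2bpl, Irf2bp2, Trp53inp1 and Irs2, had 38.4% ± 10.2 (SD, n = 11) although its median was only 4934 UMIs. Thinned to equal depth it had the highest share of all clusters tested, 18.7% ± 4.96 (SD, n = 11) against 4.46% in the rest, and was above the rest in 11 of 11 animals (exact sign-flip test, adjusted p = 0.00781). Ier5 is an immediate early gene and Trp53inp1 a p53 target, and none of the markers of its closest list was raised. Cluster 11, led by Ntng1 and Fign, had 29.9% ± 11.1 (SD, n = 12), and its thinned share of 5.46% against 4.52% did not pass (exact, adjusted p = 0.495). TDTOMATO made up 6.84 per 10000 UMIs in cluster 16 and 3.07 in cluster 11, against 5.07 in cluster 12 and 1.99 in L6 CT-like nuclei.

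**Figure D2:**
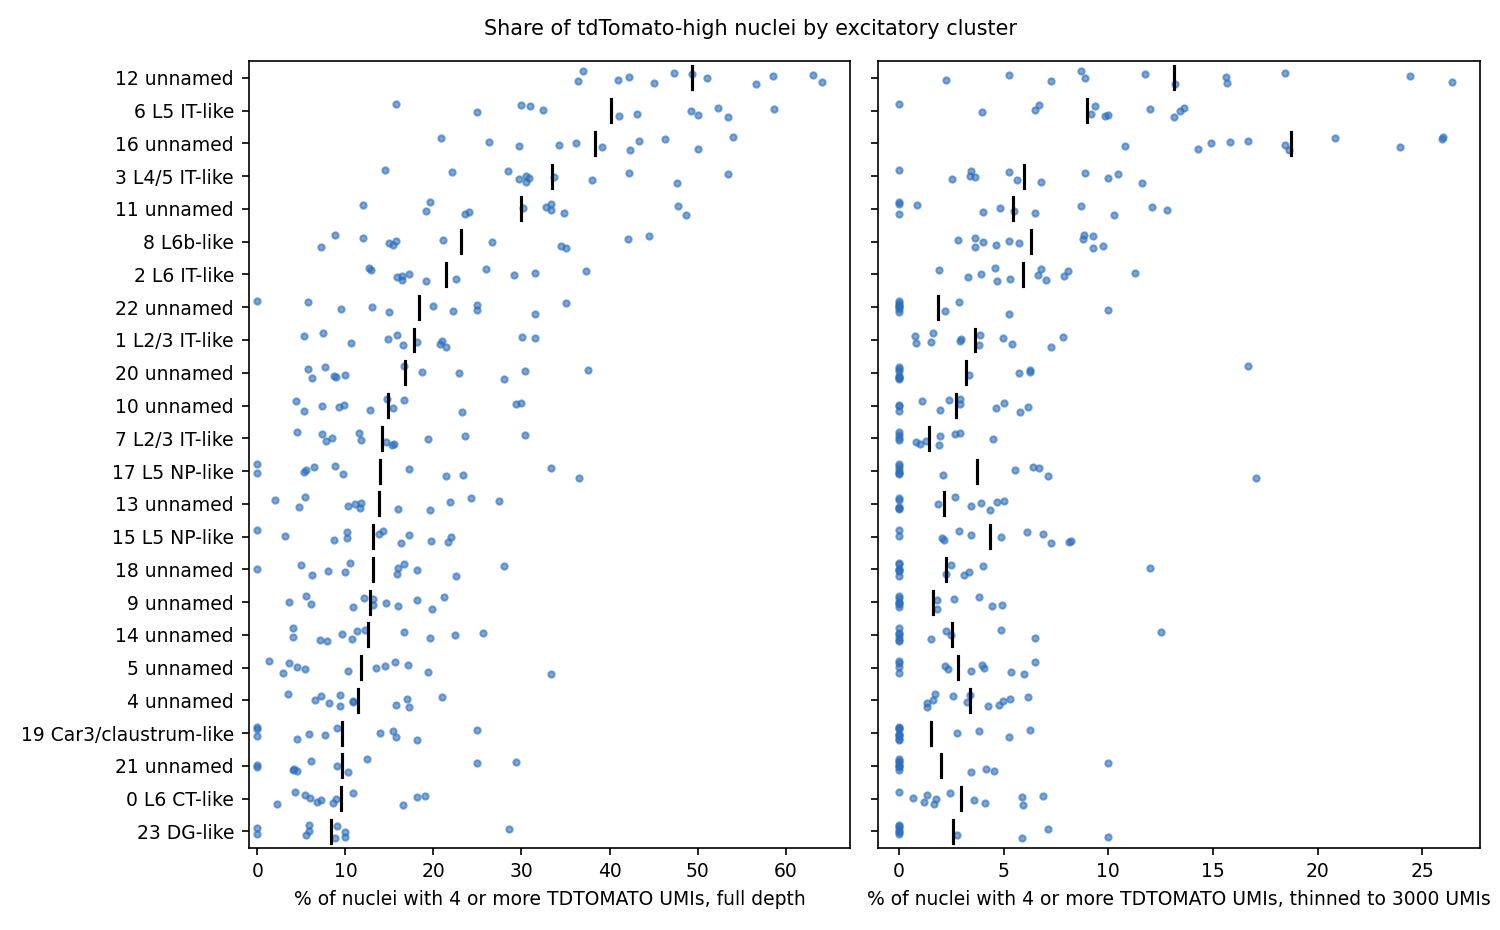
Percent of nuclei with 4 or more TDTOMATO UMIs in each of 24 excitatory clusters, ordered by the mean at full depth (left), and after thinning each nucleus to 3000 UMIs (right). Points are animals with at least 10 nuclei in the cluster, and black bars are means over animals. Cluster 12 led at full depth with 49.3% and cluster 16 led after thinning with 18.7%, while L6 CT-like and DG-like nuclei were last at full depth.

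Gene expression was then compared between the sides, on counts summed per animal and side, with TDTOMATO left out of library sizes and each animal as a block (edgeR quasi-likelihood test). A gene was called at an adjusted p under 0.05 and a log2 fold change beyond 0.2 either way. With all nuclei of each side, 11699 genes were tested, and 25.3% were called. High nuclei had 1265 genes higher (10.8%) and 1699 lower (14.5%). An unadjusted p under 0.05 was found for 42.6% of the genes.

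Most layer lists had more genes lower than higher in high nuclei, beside 14.5% lower and 10.8% higher among all genes tested. Of the L6 CT list, 5 of 5 tested genes were lower in high nuclei (median log2 fold change -1.01, against 0.0024 over all genes tested). Foxp2, a transcription factor of L6 CT neurons, was at 37.9 to 139 CPM in high sides (median 110) and 119 to 298 in negative sides (median 204). The ranges of the sides overlapped slightly, and it was lower on the high side in 12 of 12 animals, with a log2 fold change of -1.01 ± 0.0959 (SE, edgeR adjusted p = 4.41e-06). Syt6, a synaptotagmin, fell by 1.88 ± 0.13 (SE) and Tle4, a corepressor, by 1.07 ± 0.087 (SE) on the log2 scale. Of the L2/3 IT list, 5 of 6 were lower, among them Cux2, a homeobox gene of upper layers, at -0.44 ± 0.088 (SE), and Otof, the vesicle protein otoferlin, at -1.10 ± 0.12 (SE). Of the L6 IT list, 3 of 4 were lower, led by Sulf1, a heparan sulfate sulfatase, at -1.35 ± 0.099 (SE). Oprk1, the kappa opioid receptor, was also lower, at 0 to 3.10 CPM in high sides (median 0.435) and 3.6 to 18.6 in negative sides (median 6.82), without overlap. It was at 0 in 5 of 12 high sides (WT male 1, WT male 2, WT male 3, Het female 2 and Het female 3), so its fitted log2 fold change of -3.17 ± 0.35 (SE) depends on the prior count.

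The L5 IT list went the other way. Of its 6 genes, 4 were higher and 1 lower, with a median log2 fold change of 0.45, beside 10.8% higher and 14.5% lower among all genes tested. Deptor, an mTOR inhibitor, was at 34.9 to 60.1 CPM in high sides (median 47.3) and 19.6 to 31.2 in negative sides (median 24.4), without overlap. It rose by 0.98 ± 0.069 (SE), and Ptprm, a receptor phosphatase of cell adhesion, by 1.35 ± 0.095 (SE). Fezf2, the fate gene of subcerebral neurons, was higher at 0.51 ± 0.18 (SE), while Etv1 was lower at -0.42 ± 0.133 (SE). Both calls were lost when any of 5 animals was left out, WT male 2, WT male 3, Het male 3, Het female 1 or Het female 2 for Fezf2 (highest edgeR adjusted p = 0.0836) and WT female 2, WT female 3, Het male 1, Het male 2 or Het female 3 for Etv1 (0.0620). Rorb, the nuclear receptor of layer 4, was higher at 0.40 ± 0.084 (SE), in 10 of 12 animals, but was at -0.41 within the study's own limits on UMIs and genes. Tshz2 of NP neurons did not pass (0.20 ± 0.14 SE). Of the 5 tested genes of the L5 NP list, 3 were lower, Npsr1, Lypd1 and Trhr, and none higher, with a list median of -0.63. The L5 ET list had 1 gene higher and 4 lower of 5, Bcl11b at -0.80 ± 0.077 (SE). Prox1 was lower at -1.61 ± 0.18 (SE). Cplx3 of layer 6b and Osr1 of L6 IT neurons did not pass the filter on low counts.

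The 10 genes with the smallest p in each direction were then taken. Higher in high nuclei, in order of p, were Rab3c, Adcy8, Xkr6, Nebl, Hdac9, Fras1, Fmn1, Prickle2, Camta1 and Agbl4. Rab3c, a GTPase of synaptic vesicles, was at 281 to 432 CPM in high sides (median 373) and 158 to 260 in negative sides (median 199), without overlap. Its log2 fold change was 0.88 ± 0.032 (SE, edgeR adjusted p = 1.27e-23). Adcy8, a calcium-stimulated adenylyl cyclase, rose by 0.87 ± 0.035 (SE). Lower were Neto2, Cntn6, Neto1, Rfx3, Mmp16, Lmo3, Sgk1, Col5a1, Gm29514 and Stxbp5. Neto2, an auxiliary subunit of kainate receptors, was at 42.5 to 64.8 CPM in high sides and 92.3 to 161 in negative sides, without overlap, a log2 fold change of -1.35 ± 0.051 (SE, edgeR adjusted p = 2.28e-21). Cntn6, a contactin of cell adhesion, was at -1.05 ± 0.045 (SE) and Sgk1, a kinase induced by glucocorticoids, at -1.06 ± 0.052 (SE). All 20 moved the same way in 12 of 12 animals. Agbl4, at 0.50 ± 0.027 (SE), was at -0.11 within the study's own limits on UMIs and genes.

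To compare nuclei of the same kind and depth, high and negative nuclei were then matched one to one within animal, cluster and 1000-UMI bin. This kept 2360 nuclei per side, 60.0% of the high ones, with 68 to 344 per animal. Median UMIs were 6499 to 8173.5 on the high and 6323.5 to 8150.5 on the negative side. Of 8678 genes tested, 13.3% were called, 420 higher (4.84%) and 736 lower (8.48%), and 29.6% had an unadjusted p under 0.05. The matched nuclei are a subset of those compared above, and both comparisons share high and negative nuclei.

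With matched nuclei the layer markers had these values. Foxp2 was at 0.05 ± 0.050 (SE) and Rorb at -0.02 ± 0.052 (SE), and neither was called, with 8 and 6 of 12 animals higher. Cux2 stayed lower at -0.32 ± 0.058 (SE), Syt6 at -0.72 ± 0.12 (SE), Tle4 at -0.33 ± 0.055 (SE), Bcl11b at -0.36 ± 0.071 (SE) and Etv1 at -0.72 ± 0.12 (SE). Syt6 was at 0 in 1 negative side. Deptor stayed higher at 0.29 ± 0.0959 (SE), in 8 of 12 animals, and lost the call without WT female 2, Het male 1, Het male 3 or Het female 3 (0.21 without the last, edgeR adjusted p = 0.141), without the highest doublet scores (0.107) or without the glia-led clusters (0.0775). By list, beside 8.48% lower and 4.84% higher among all genes tested, 2 of 5 L6 CT, 3 of 6 L2/3 IT, 2 of 3 L4/5 IT, 4 of 4 L5 ET, 2 of 3 L6 IT and 2 of 4 L5 NP genes were lower and none of these higher. The L5 IT list had 1 of 6 higher, Deptor, and 1 lower, Etv1, and the L6b list 1 of 2 higher, Inpp4b, and 1 lower, Svil. Of the Car3/claustrum list none of 5 was called, and of the DG list 2 of 3 and of the hippocampal CA pyramidal list 2 of 3 were lower. The part that subtypes within clusters play in these remaining differences was not tested. Myt1l itself was at 0.05 ± 0.030 (SE) and was not called.

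**Figure D3:**
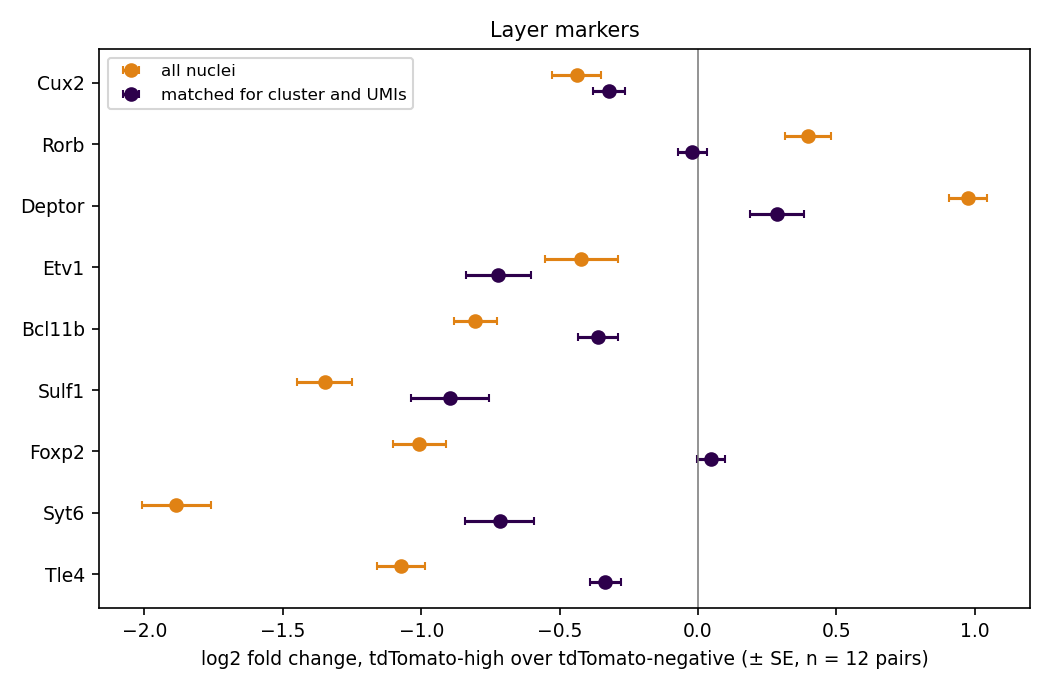
Log2 fold change of 9 layer markers, tdTomato-high over tdTomato-negative, with standard errors of the edgeR fit to 12 animal pairs. Orange marks all nuclei and purple nuclei matched for cluster and UMIs. Foxp2 moved from -1.01 to 0.05 and Rorb from 0.40 to -0.02, while Sulf1, Syt6 and Etv1 stayed below 0 in both.

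The 10 lower genes with the smallest p in matched nuclei included an adhesion protein and receptor subunits of glutamatergic synapses. Lrrtm4, a postsynaptic adhesion protein, was at 2077 to 3597 CPM in high sides (median 2641) and 3815 to 5316 in negative sides (median 4401). The ranges did not overlap, and the log2 fold change was -0.70 ± 0.033 (SE, edgeR adjusted p = 1.13e-19). Neto1, an auxiliary subunit of kainate receptors that also associates with NMDA receptors, was at 205 to 327 CPM (median 261) against 363 to 495 (median 398), again without overlap, at -0.63 ± 0.039 (SE). Its relative Neto2 (chromosome 8, 85636588 to 85700924 in mm10) was at 40.0 to 72.9 (median 56.9) against 80.6 to 159 (median 124), again without overlap, at -1.10 ± 0.067 (SE). Gria3, an AMPA receptor subunit (chromosome X, 41400854 to 41678601 in mm10), was at 633 to 760 (median 701) against 875 to 1099 (median 960), without overlap, at -0.46 ± 0.030 (SE).

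Further lower genes by the same rule were Prr16 (-0.86 ± 0.048 SE), Cnksr2, a scaffold of the postsynaptic density (-0.48 ± 0.031 SE), Mmp16, a membrane metalloproteinase (-0.50 ± 0.033 SE), and Khdrbs3, a splicing regulator of neurons (-0.50 ± 0.034 SE). Cdh9, a type II cadherin, was at -0.98 ± 0.063 (SE), and Arpp21, an RNA-binding phosphoprotein, at -0.43 ± 0.029 (SE). Cdh9 was lower in 11 of 12 animals and the other 9 in 12 of 12. The excitatory synapse list, which holds receptor subunits, scaffolds and kinases, was read against the 4.84% of all tested genes that were higher and the 8.48% that were lower. Of its 25 genes, all tested, none was higher and 4 were lower, Gria3, Gria2 (-0.27 ± 0.0285 SE), Camk2a (-0.22 ± 0.0309 SE) and Nrgn (-0.22 ± 0.0631 SE). Camk2a fell under the fold limit without the clusters led by glial markers. The median over the list was -0.04, against 0.0045 over all genes tested.

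The 10 higher genes with the smallest p in matched nuclei had log2 fold changes of 0.34 to 0.69. Samd5 (chromosome 10, 9622936 to 9675208 in mm10) was at 120 to 202 CPM in high sides (median 161) and 79.9 to 112 in negative sides (median 97.6). Of the 10 higher genes it was the one whose ranges did not overlap, at 0.69 ± 0.052 (SE, edgeR adjusted p = 4.25e-16). Xkr6, of a family of scramblase-like proteins, was at 190 to 338 (median 273) against 143 to 237 (median 188), at 0.54 ± 0.043 (SE). Sik3, a salt-inducible kinase, rose by 0.46 ± 0.040 (SE) and Necab1, a neuronal calcium-binding protein, by 0.47 ± 0.043 (SE). Usp29 (0.52 ± 0.042 SE), Peak1 (0.52 ± 0.049 SE), Galnt17 (0.43 ± 0.040 SE), Plcl1 (0.40 ± 0.035 SE), Nebl (0.36 ± 0.034 SE) and Tspan5 (0.34 ± 0.032 SE) completed the 10. All were higher in 12 of 12 animals.

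**Figure D4:**
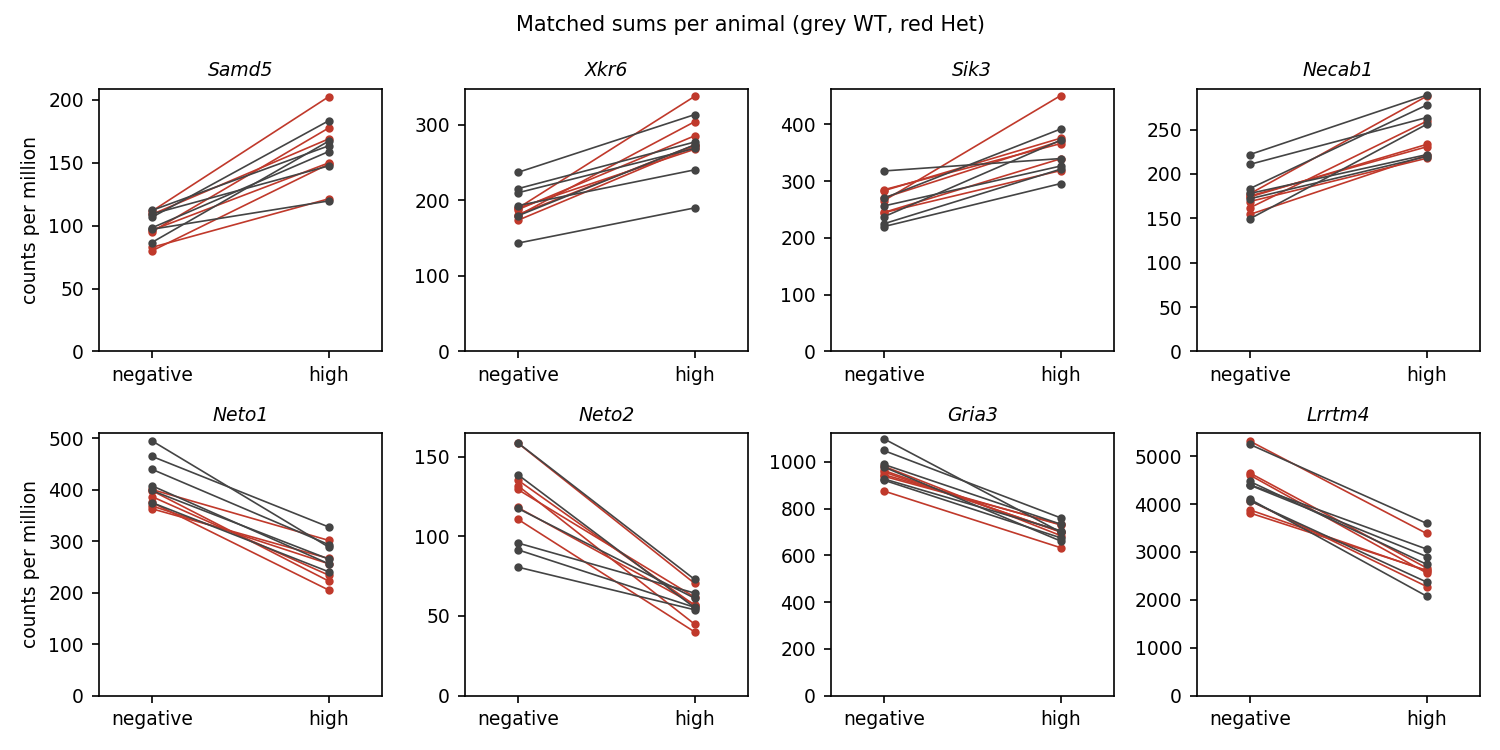
CPM of 8 genes in matched nuclei, with each line joining the tdTomato-negative and tdTomato-high sums of 1 animal (grey WT, red Het). Samd5, Xkr6, Sik3 and Necab1 rose in every animal, and Neto1, Neto2, Gria3 and Lrrtm4 fell in every animal.

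The 5 called genes with the largest folds in each direction were also taken. Lower were Gm45341 (-1.89 ± 0.24 SE), Brinp3 (-1.70 ± 0.090 SE), Htr2a, a serotonin receptor (-1.69 ± 0.15 SE), Hgf, a growth factor (-1.58 ± 0.15 SE), and Abi3bp (-1.52 ± 0.37 SE). Brinp3 was the most abundant of them, at 56.7 to 203 CPM in high sides against 267 to 472 in negative sides, without overlap. Abi3bp was listed at 0 in 1 high side and was lower in 10 of 12 animals. Higher were Pcdhga11 (1.18 ± 0.18 SE), Neat1, a nuclear long noncoding RNA (0.81 ± 0.17 SE), Gm49906 (0.79 ± 0.14 SE), Fgf9, a fibroblast growth factor (0.76 ± 0.19 SE), and D5Ertd615e (0.75 ± 0.15 SE). Pcdhga11 shares its last exons with the rest of its protocadherin cluster, so its count is uncertain. Called genes were long. The median gene spanned 85.7 kb among the higher and 96.5 kb among the lower genes, against 41.4 kb over all genes tested with a known length. Called and other genes were not compared at equal counts, so the part of detection in this was not tested.

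Lists of the response to foreign nucleic acid and to damage were read in matched nuclei against the 4.84% of all tested genes that were higher and the 8.48% that were lower. Of 4 interferon response genes that could be tested, none was higher and Stat2, a signal transducer of type I interferon, was lower (-0.32 ± 0.12 SE, edgeR adjusted p = 0.04995, just under the threshold). None of 3 nucleic acid sensing genes was called. Of 9 p53 targets none was higher and Plk2, a kinase also induced by neuronal activity, was lower (-0.63 ± 0.092 SE), while Ccng1, another p53 target, was at 0.41 ± 0.18 (SE) and did not pass. Of 16 genes of double-strand break repair, 3 were lower, the kinase Atr (-0.35 ± 0.073 SE), Prkdc, the catalytic subunit of DNA-dependent protein kinase (-0.28 ± 0.067 SE), and the polymerase Polq (-0.54 ± 0.17 SE). Of 30 interferon and 15 sensing genes on the lists, most were too low to test, so a change in them was not detectable at this depth.

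Stress and activity lists, read against the same 4.84% higher and 8.48% lower, had 0 to 2 calls each. The heat shock list had 1 of 6 genes higher, Hsp90aa1 (0.27 ± 0.084 SE), the apoptosis list 1 of 6, Diablo (0.25 ± 0.091 SE), and the unfolded protein response list 1 of 11 lower, Asns (-0.52 ± 0.17 SE). Of 7 immediate early genes 2 were higher, Nr4a3, an orphan nuclear receptor (0.50 ± 0.10 SE), and Bdnf, the neurotrophin (0.49 ± 0.14 SE). With all nuclei, before matching, where 10.8% of all tested genes were higher and 14.5% lower, the list had 4 of 14 higher, Fos among them (0.56 ± 0.17 SE), and the unfolded protein response list 3 of 16 higher, led by Ddit3 (0.77 ± 0.14 SE), and 1 lower. Also with all nuclei, 3 of 7 apoptosis genes and 1 of 7 heat shock genes were higher, and none of either list was lower. Of 14 p53 targets 2 were higher, Zmat3 and Ccng1, and 1 was lower. Of 10 interferon response genes 3 were lower and none higher, and of 18 break repair genes 5 were lower and 1 higher. None of 5 nucleic acid sensing genes was called. Of 37 ribosomal protein genes none was called before matching, and 1 of 8, Rpl3 (0.51 ± 0.18 SE), was higher after it.

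Several of these single calls rested on few nuclei or animals. Stat2 lost its call when any of 9 animals was left out (highest edgeR adjusted p = 0.158), and so did Diablo (9 animals, 0.117), Rpl3 (5 animals, 0.119) and Bdnf (WT female 2, Het male 2, Het female 1 or Het female 2, 0.0557). Asns lost it without WT female 2 or Het female 2 (0.0935) and Polq without WT male 2 or WT male 3 (0.0652). Without the clusters led by glial markers, edgeR adjusted p was 0.107 for Nr4a3, 0.123 for Bdnf, 0.0838 for Hsp90aa1, 0.197 for Rpl3, 0.0832 for Polq and 0.144 for Stat2. Without the 5% highest doublet scores it was 0.156 for Asns, 0.227 for Diablo, 0.133 for Polq and 0.107 for Stat2. In the third draw of matched nuclei it was 0.0653 for Nr4a3, 0.0914 for Bdnf, 0.209 for Asns, 0.0576 for Diablo and 0.0804 for Stat2, and in the second draw 0.0979 for Diablo. Without cluster 16 it was 0.115 for Bdnf and 0.0584 for Asns. Without cluster 10, described with the markers of other cell types, it was 0.0831 for Polq, 0.0577 for Hsp90aa1, 0.0610 for Diablo and 0.0501 for Stat2. Plk2, Atr and Prkdc kept their calls in each of these.

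Genes that act on the vector were read against the 13.3% of all genes tested that were called. Of 13 tested genes of AAV entry and trafficking, Met, the receptor of Hgf, was lower (-0.80 ± 0.18 SE) and none was higher. With finer clusters Met was at -0.42 and not called (edgeR adjusted p = 0.165). Of 12 genes of episome silencing, Morc2a, a chromatin ATPase of the HUSH pathway, was higher (0.25 ± 0.068 SE) and Tasor, a core subunit of the HUSH complex, lower (-0.21 ± 0.051 SE). Morc2a lost its call without cluster 16 (edgeR adjusted p = 0.0553) and in the third draw (0.0594). Tasor fell under the fold limit in the second draw, in the third, without the highest doublet scores, without the glia-led clusters, without cluster 16, without cluster 10 and without WT female 1 or Het female 3 (-0.18). The reporter is an H2B fusion, and Hist1h2be, the 1 H2B histone gene that could be tested, was at -0.29 ± 0.178 (SE) and was not called. Of 8 immature neuron genes 4 were lower, beside 8.48% of all genes tested, and the list's median was -0.18, beside 0.0045 over all. They were Gap43, the growth cone protein (-0.35 ± 0.063 SE), Nnat (-0.62 ± 0.13 SE), Stmn1 (-0.44 ± 0.10 SE) and Stmn2 (-0.21 ± 0.062 SE), which fell under the fold limit without WT female 3, Het male 2, Het female 1 or Het female 3 (-0.18) and without the glia-led clusters.

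Markers of other cell types were given beside these results, and are read against the same 4.84% higher and 8.48% lower. In matched nuclei none of 3 oligodendrocyte genes and not the 1 tested microglial gene was called, and the summed oligodendrocyte list was at 66.7 to 196 CPM in high and 53.9 to 188 in negative sides. The summed microglial list was at 19.7 to 51.2 and 26.9 to 48.7. Of 3 tested inhibitory genes Nxph1 was lower (-0.92 ± 0.29 SE), a call lost when any of 9 animals was left out (highest edgeR adjusted p = 0.0969), without the highest doublet scores, without cluster 16, without cluster 10 or in the third draw, and the summed list was at 82.1 to 241 and 95.7 to 262. Of the OPC list Vcan, the only gene tested, was lower (-0.90 ± 0.18 SE). Of 4 astrocyte genes Slc4a4 was lower (-0.25 ± 0.0623 SE). The part of other cells' RNA in the results was not tested. No endothelial gene could be tested, and Cldn5 was at 0. With the 5% highest doublet scores left out, 1161 genes were called in place of 1156, and without the 2 clusters led by microglial and oligodendrocyte markers, 1162. In these 2 clusters 21.8% and 53.4% of nuclei were among the highest doublet scores. Without cluster 16, 1198 genes were called. Cluster 10, with 691 nuclei, of which 8.39% were among the highest doublet scores, was closest to the inhibitory list (3 of 10 markers raised, 2 of them, Adarb2 and Erbb4, among its 10 leading genes), although Gad1 and Gad2 were at 0 by the rule. It was kept and left unnamed, and without it 1211 genes were called with matched nuclei and 2939 in place of 2964 with all nuclei. All 20 genes named above by p were called the same way in each of these.

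The same genes were read within single clusters, matched for UMIs only. In L6 IT-like nuclei (9 animals with at least 20 nuclei a side) 19 of the 20 genes were called the same way, beside 10.3% of all genes tested there that were called in either direction. In L2/3 IT-like nuclei of cluster 1 (10 animals) 18 could be tested, and 13 were called the same way, beside 7.63%. In L6 CT-like nuclei (6 animals) 19 could be tested, and 13 were called the same way, beside 5.94%. No gene changed sign. Neto2 was at -1.18, -0.82 and -1.06, Gria3 at -0.68, -0.42 and -0.67, and Galnt17 at 0.84, 0.71 and 0.69 in these 3 groups. The nuclei overlap with those that chose the genes, so this is a description.

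Nuclei with 1 to 3 TDTOMATO UMIs were set against negative nuclei by the same matching. Of 11271 genes tested, 5.56% were called, 182 higher (1.61%) and 445 lower (3.95%), and 21.5% had an unadjusted p under 0.05. The comparison shares negative nuclei with the one above. Neto2 was at -0.58 ± 0.042 (SE) with 1 to 3 UMIs beside -1.10 ± 0.067 with 4 or more, Lrrtm4 at -0.38 ± 0.034 beside -0.70 ± 0.033, and Samd5 at 0.44 ± 0.039 beside 0.69 ± 0.052. Stat2 (-0.03 ± 0.076 SE), Prkdc (-0.10 ± 0.043 SE), Bdnf (0.06 ± 0.093 SE) and Hsp90aa1 (0.14 ± 0.063 SE) were not called there, and Gap43 (-0.26 ± 0.041 SE) and Met (-0.52 ± 0.11 SE) were.

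GABAergic nuclei of the same animals allowed the comparison in nuclei that the excitatory rule excludes. With high and negative nuclei matched within animal and 1000-UMI bin, but not for subtype (40 to 154 a side in the 11 animals used, WT male 1 being left out with 15), 6459 genes were tested and 17.9% were called, 449 higher (6.95%) and 705 lower (10.9%), and 28.6% had an unadjusted p under 0.05. Of the 10 higher genes named above, 6 were higher in GABAergic nuclei, 2 lower and 2 not called. Of the 10 lower genes, 6 were lower and 4 not called. Neto2 was at -0.95 ± 0.077 (SE) and Samd5 at 1.03 ± 0.125 (SE). Necab1 was at -0.64 ± 0.14 (SE) and Galnt17 at -0.65 ± 0.071 (SE), opposite to excitatory nuclei. The GABAergic sides also differed in inhibitory markers. The summed inhibitory list was at 9794 to 12515 CPM in high and 14427 to 20531 in negative sides, without overlap. Of its 8 tested genes 1 was higher and 3 lower, beside 6.95% and 10.9% of all genes tested. Neto1 (0.05 ± 0.070 SE), Mmp16 (0.11 ± 0.064 SE) and Khdrbs3 (0.03 ± 0.071 SE) were not called.

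The log2 ratio of the high to the negative side was compared between the 2 classes per animal over these 20 genes. The excitatory ratio minus the GABAergic one passed in 9 of them (exact sign-flip test over 11 animals, Benjamini-Hochberg adjusted p under 0.05). For Galnt17 this difference of log2 ratios was 1.09 ± 0.222 (SD, n = 11), positive in 11 of 11 animals (exact, adjusted p = 0.00326). For Neto1 it was -0.678 ± 0.287 (SD, n = 11), negative in 11 of 11 animals (exact, adjusted p = 0.00326). For Neto2 the difference was -0.113 ± 0.458 (SD, n = 11) and did not pass (exact, adjusted p = 0.531). The genes were chosen by their excitatory values, which tends to enlarge those values. The part of interneuron subtypes in these differences was not tested.

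**Figure D5:**
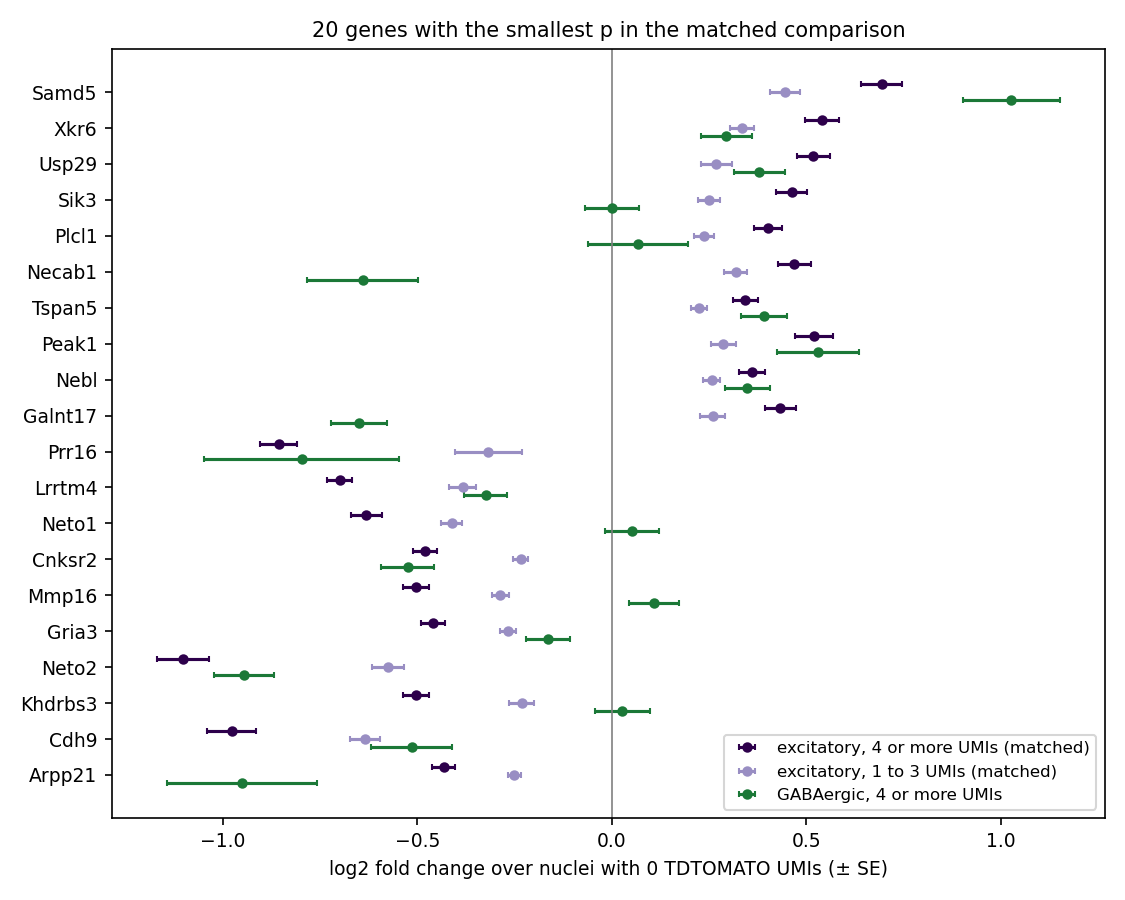
Log2 fold change over nuclei with 0 TDTOMATO UMIs, with standard errors, for the 20 genes with the smallest p in matched excitatory nuclei, in excitatory nuclei with 4 or more UMIs (dark purple), excitatory nuclei with 1 to 3 UMIs (light purple) and GABAergic nuclei with 4 or more UMIs (green). Neto2 is at -1.10, -0.58 and -0.95 in these 3 sets, and Necab1 and Galnt17 lie on opposite sides of 0 in excitatory and GABAergic nuclei.

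Whether these differences depended on genotype or sex was tested as an interaction. No gene was called for genotype, with all nuclei (0% of 11699 genes) or with matched nuclei (0% of 8678), or for sex with matched nuclei, by edgeR's quasi-likelihood test. Unadjusted p was under 0.05 for 589, 414 and 425 genes, of 11699, 8678 and 8678 tested. Each is near the share of 0.05 that chance alone gives. DESeq2 also called no gene. Singled out after its value was seen, Npas3, a neuronal transcription factor, had the smallest adjusted p with matched nuclei, and its log2 fold change was 0.62 ± 0.12 (SE) more positive in Het than in WT animals (edgeR adjusted p = 0.106).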

How the data were processed

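Single-nucleus RNA of 12 animals was analysed from 1 gene-by-barcode matrix per animal. The authors mapped reads to mm10 with the ScaleRna pipeline and deposited expected counts, of which 92.3% of the non-zero entries were whole numbers. Per the labels, their downstream work used Seurat 4.3.0 and DESeq2 1.38.3. The matrices held 78743 barcodes, fewer than the nuclei that the study states for this age, yet 74.6% of the excitatory nuclei studied here fell outside the limits on UMIs and genes that it set, so how these barcodes relate to the nuclei it kept is not known. The study used DoubletFinder to take out multiplets before it set its UMI and gene limits. Whether the deposited matrices come from before or after that step is not given in the sources used here.

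Members and gene lists were chosen with earlier results of these data known. Nuclei were clustered with scanpy 1.11.5 and leidenalg 0.10.2 on 2000 variable genes without TDTOMATO. Doublets were scored with Scrublet and kept, and results were repeated without the 5% highest scores. Counts were summed per animal and side and rounded to whole numbers, and side effects were tested with edgeR 4.0.16 (quasi-likelihood, TMM, filterByExpr) with animal as a term, since both sides came from the same animal. Sums held 470539 to 2483870 counts with matched nuclei and 757072 to 8717140 with all nuclei. Calls needed an adjusted p under 0.05 and a log2 fold change beyond 0.2. Standard errors (SE) of fold changes came from this fit, which shares variance information across genes, and not from each gene's spread over animals alone. Shares were compared with exact permutation tests over animals.

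Genes were named by rule: the 10 with the smallest p in each direction among called genes of 1 sign in at least 10 animals, in each excitatory comparison, the 5 largest folds in each direction with matched nuclei, up to 4 genes of each list, the layer markers and Myt1l. Alternatives were DESeq2 1.42.0, other normalizations, no filter on low counts, other TDTOMATO limits, the study's limits, thinning, other matching and leaving out each animal. Leaving out the glia-led clusters, cluster 16 or cluster 10 and reading single clusters were added after seeing the data. In simulated data, genes changed by 0.5 on the log2 scale were recovered in 92.7% of cases with matched nuclei (11 false calls, 8560 genes) and in 81.2% with all nuclei (4 false calls, 11566 genes).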

Additional observations from a re-analysis of the deposited data

Results flagged for a closer look

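For each gene named, the log2 ratio of the high to the negative side was taken per animal, and an animal was picked out where it stood far from the other animals of its genotype (Dixon's test, groups of 6, or fewer where an animal was left out). Chance picks out about 1 in 20 such groups, and whether more were picked than that was not tested. With matched nuclei, the animal so picked among WT had a log2 ratio of -0.359 for Camk2a, -3.41 for Met, 0.799 for Stat2, 0.255 for Stmn1 and 0.607 for Xkr6. Among Het animals it was -0.61 for Arpp21, -1.59 for Asns, -0.869 for Bcl11b, -0.399 for Foxp2, 0.148 for Galnt17, 0.178 for Gap43 and 0.764 for Sik3. With all nuclei, it was -2.11 for Etv1 in WT and, in Het animals, -2.21 for Foxp2, -1.96 for Gm29514 and 0.529 for Xkr6. In GABAergic nuclei it was -0.843 for Cdh9 in WT.

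Of the 20 genes with the smallest p in matched excitatory nuclei, 9 had a log2 ratio of high to negative side that differed between excitatory and GABAergic nuclei of the same animals. The tests were exact sign-flip tests over 11 animals, adjusted over the 20 genes. The genes were chosen by their excitatory values, and the GABAergic nuclei were not matched for subtype. The excitatory log2 ratio minus the GABAergic one was 0.471 for Sik3, 1.19 for Necab1, 1.09 for Galnt17, 0.557 for Arpp21, -0.388 for Lrrtm4, -0.678 for Neto1, -0.605 for Mmp16, -0.291 for Gria3 and -0.553 for Khdrbs3. Arpp21 fell in both classes, by more in GABAergic nuclei.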

How the results depend on the processing

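Of the alternatives to the main counts and shares, 108 stayed within 1.5 times the value or on the same side. With all nuclei, where 2964 genes were called, 1775 were called at 8 or more TDTOMATO UMIs, 1128 within the study's limits and 1103 after thinning to 3000 UMIs. With matched nuclei, where 1156 were called, DESeq2 called 724, the limit of 8 UMIs gave 319, the study's limits 132, and single clusters 241 (cluster 1), 323 (cluster 2) and 162 (cluster 0). Those settings hold fewer nuclei or UMIs, except DESeq2, for which the cause was not tested. Thinning also redrew the sides, with 826 negative nuclei in place of 501 in WT male 2, so depth and membership changed together. DESeq2 called 330 genes for 1 to 3 UMIs (edgeR 627) and 750 in GABAergic nuclei (edgeR 1154). Without a filter on low counts, the interactions called 7 genes (genotype, all nuclei), 2 (genotype, matched) and 2 (sex).

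Leaving out each animal in turn gave 2766 to 2962 genes with all nuclei, 1040 to 1183 with matched nuclei, 18 to 20 clusters and 0 to 1 genes in each interaction (1 without Het male replicate 2 in all 3, without WT male replicate 3 or Het female replicate 2 for genotype with matched nuclei, and without Het female replicate 1 for sex). The genotype difference in the share of high nuclei, -0.241 points, ranged from -2.16 to 1.91 without 1 animal, was 0.00118 at 8 or more UMIs and 0.0851 after thinning. Without the pairing of each animal's sides (no block for animal), 2576 genes in place of 2964 were called with all nuclei and 791 in place of 1156 with matched nuclei. In the share of high nuclei, deviations of same-numbered WT and Het animals from their group means correlated at -0.771 over 6 pairs. These are too few to tell whether the numbers mean more than a label. With complete pairs, a replicate block leaves the genotype difference at -0.241 by construction, which says nothing about the pairing.

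Signs that turned were mostly of values near 0. Within the study's limits Rorb was at -0.41, Agbl4 at -0.11 and Myt1l at -0.37 with all nuclei, and Tasor at 0.0836 and Myt1l at -0.0183 with matched nuclei. Myt1l with all nuclei was also at -0.00302 matched for UMI bin, -0.0646 thinned and -0.000763 without the glia-led clusters, and from -0.00391 to 0.0188 without 1 animal. Rorb with matched nuclei was at 0.0296 with finer clustering, 0.0271 without cluster 10 and from -0.0486 to 0.0435 without 1 animal. In single clusters, Morc2a was at -0.0188 and Gap43 at 0.0328 (cluster 1), Tasor at 0.12 (cluster 2), and Prkdc at 0.0681 and Myt1l at -0.0912 (cluster 0). The share of cluster 1 was 2.18 points above the rest at 2 or more UMIs. Depth limits the interferon and sensing lists, most of whose genes could not be tested. With matched nuclei, 11 of 21 unfolded protein response, 6 of 12 heat shock, 6 of 13 apoptosis and 7 of 17 immediate early genes were tested.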
